A study of Mus musculus with 16 samples.

Results

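The genes for mitochondrial ribosomal proteins were followed as a set through 16 RNA-seq libraries of mouse neural stem cells (NSC). Every gene line whose symbol is Mrpl or Mrps, then a number and at most 1 letter, was taken, which gave 78 of the 55471 gene lines in the table of each day. By symbol, 49 of the 78 genes encode proteins of the large subunit (Mrpl) and 29 encode proteins of the small subunit (Mrps). The rule uses names alone, and all 78 genes passed the filter on low values (a mean of at least 0.1 TPM) in every comparison.

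Mitochondria carry their own ribosome, the mitoribosome, which translates the few mRNAs of the mitochondrial genome. All of those mRNAs encode membrane subunits of the oxidative phosphorylation complexes. The mitoribosome takes its rRNA from the mitochondrial genome, whereas all of its proteins are encoded in the nucleus, made in the cytosol and imported. Part of these proteins have bacterial counterparts and part are found in mitochondria only.

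NSC were taken from cortices of C57BL/6 mouse embryos at embryonic day 15 to 16, pooled over embryos of both sexes, grown as a monolayer with FGF2, and moved to differentiation medium without it on day 5 after seeding. Lentivirus added on the day after seeding carried either a scrambled shRNA (shRNA CON) or an shRNA against the long noncoding RNA RUS (shRNA RUS), an RNA transcribed upstream of Slitrk3 and annotated as Gm20754. PolyA RNA was sequenced on day 5 and on day 7, which gave 4 groups of 4 libraries: shRNA CON and shRNA RUS on each day. All cultures were thus transduced, primary and of the same strain, each arm rests on 1 shRNA construct, and the labels do not say whether equal replicate numbers share a culture, so that p-values measure the spread between these libraries.

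The target of the shRNA was close to the lower end of the scale in every library. Deposited Gm20754 levels on day 5 were 0.24, 0.11, 0.18 and 0.16 TPM with shRNA CON and 0.05, 0.00, 0.12 and 0.32 TPM with shRNA RUS (exact permutation test, two-sided, p = 0.543, n = 4 per group). On day 7 they were 0.70, 0.72, 0.26 and 0.54 TPM against 0.54, 0.38, 0.00 and 0.04 TPM (exact permutation test, two-sided, p = 0.143, where 0.0286 is the smallest value that 4 against 4 libraries allow). The groups overlapped on both days, so that these levels do not separate the labels, and the library labelled shRNA RUS replicate 4 of day 5 held more Gm20754 than any control of that day. That library also stood apart for the genes described here and by its factor (1.01, against 0.920 to 0.939 in the other 3 of its group). The day 5 sums and counts of the whole set and of each subunit by name are given with and without it. Other day 5 values, such as those by structure, by bacterial counterpart, by region and for single genes, include it. Since TPM sum to a constant, they do not show how deeply a library was sequenced. Between 25612 and 29126 genes were above 0 per library. Median-ratio factors of the day 5 libraries lay between 0.920 and 1.01 with shRNA RUS and between 1.02 and 1.11 with shRNA CON, against 0.991 to 1.01 on day 7. Radial glia markers were abundant in all groups, with Vim at group means of 4739 to 13489 scaled TPM, and Sox2 at 148 to 168.

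Levels are given as scaled TPM, that is, deposited TPM divided by a library factor set over all 16 libraries, and since TPM are per transcript length they can be compared between genes. Mean levels of the 78 genes over the 16 libraries ran from 9.49 to 311 scaled TPM with a median of 64.7. The median was 66.4 for the large and 60.3 for the small subunit. Mrps6 was the most abundant at 311 scaled TPM, followed by Mrps21 at 255 and Mrpl17 at 161. Mrps6 and Mrps21 together made up 26.3% of the summed level of the small subunit. Exons of Mrps6 overlap those of Slc5a3 on the same strand, so that reads of the pair may be split between them. The least abundant were Mrpl1 at 9.49, Mrps30 at 12.01 and Mrpl23 at 12.3 scaled TPM. Mrpl23 has an annotated pseudogene, Mrpl23-ps1, that was listed at 48.5 to 82.6 deposited TPM, above the gene itself, and the level of Mrpl23 is uncertain for that reason.

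The summed level of the 49 large subunit genes in the 4 shRNA CON libraries of day 5 was 3392, 3963, 3821 and 4103 scaled TPM. With shRNA RUS on the same day it was 4736, 4707, 4661 and 3687 scaled TPM. The first 3 of these lay above every control and the library labelled shRNA RUS replicate 4 lay among the controls. On day 7 the sums were 3233, 3126, 3089 and 2940 scaled TPM with shRNA CON and 2464, 2481, 2484 and 2403 scaled TPM with shRNA RUS, with no overlap. Sums of the 29 small subunit genes followed the same order: 2386 ± 172 scaled TPM with shRNA CON and 2819 ± 249 with shRNA RUS on day 5, then 1859 ± 71.6 and 1550 ± 35.3 on day 7 (mean ± SD, n = 4). Relative to shRNA CON, shRNA RUS libraries thus held 1.16 times the large and 1.18 times the small subunit sum on day 5, and 0.794 and 0.834 times on day 7. Without replicate 4 the ratios on day 5 were 1.23 for both. Group means were in the order shRNA RUS day 5, shRNA CON day 5, shRNA CON day 7, shRNA RUS day 7 for 57 of the 78 genes, and shRNA RUS on day 7 was the lowest group for 74.

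**Figure D1:**
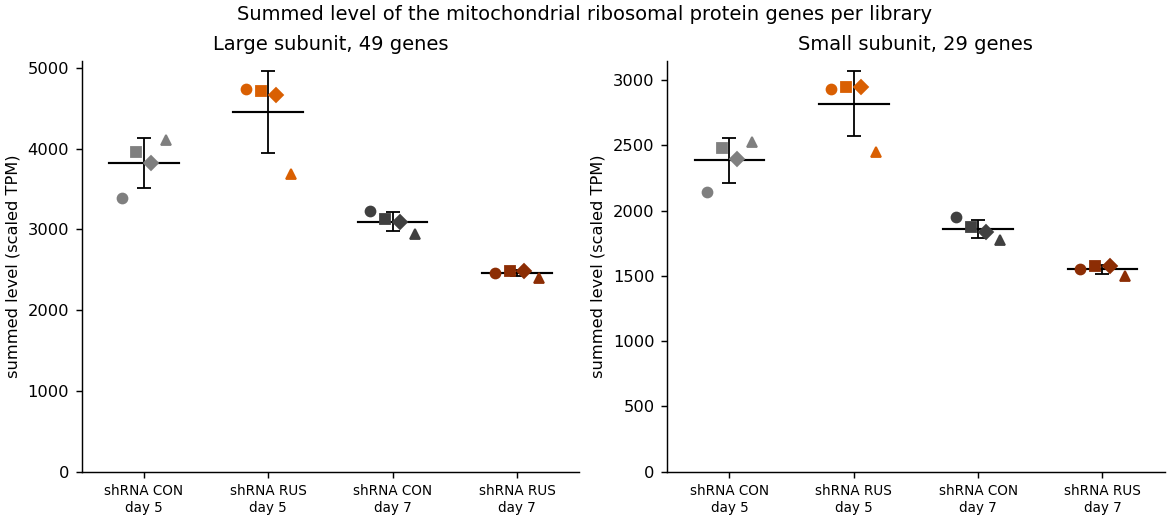
Summed level (scaled TPM, axis from 0) of the 49 large subunit genes (left) and the 29 small subunit genes (right) in each library of the 4 groups. Points are libraries (circle, square, diamond and triangle for replicates 1 to 4), lines are means and bars are SD over 4 libraries; in both panels 3 day 5 shRNA RUS libraries lie above all controls, replicate 4 lies among them, and the day 7 groups do not overlap.

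Since most of these genes shared 1 order of the groups, the sequence around their start sites was searched for words they hold in common. RefSeq promoters (GRCm38.p6, 250 bases before to 50 bases after the start) were found for 69 of the 78 genes, 43 of the large and 26 of the small subunit. Words of factors known to act at genes for mitochondrial proteins were searched on both strands. The ETS word CCGGAAG, which the factor GABPA recognises, was in 26 of the 69 promoters (37.7%), against 16.1% of the promoters of 14204 genes tested here and 9.93% of all 27025 promoters. The YY1 word AAGATGG was in 13 (18.8%), against 7.53% and 7.28%, and the NRF1 core GCATGCG in 8 (11.6%), against 6.13% and 4.01%. The E-box CACGTG was in 5 (7.25%, against 10.4% and 8.09%), the CCAAT box in 27 (39.1%, against 42.2% and 41.1%) and the E2F word TTCCCGC in 5 (7.25%, against 8.47% and 5.29%). No word of the 6 was present in 16 promoters. Genes with the ETS word had a median log2 change of 0.23 on day 5 and -0.28 on day 7, and those without it had 0.16 and -0.25. With and without the NRF1 core, the medians were 0.06 and 0.20 on day 5 and -0.45 and -0.23 on day 7, and with and without the YY1 word they were 0.35 and 0.18 on day 5 and -0.20 and -0.28 on day 7, all given without a test. A word is a match of letters, not a site shown to be bound. The genes tested average 0.1 TPM or more, whereas each of the 78 genes averaged at least 9.49 scaled TPM. No background of equally abundant genes was searched, so the higher shares of words are not shown to be particular to these genes.

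The following promoters are printed for the genes whose values carry the comparisons: Mrpl33 and Mrps17, which were lower with shRNA RUS on both days, Mrps21 and Mrps7, which were higher on day 5, and Mrps24 and Mrpl17, which were lower on day 7. Capitals mark the words searched. The Mrpl33 promoter holds a CCAAT box, then an NRF1 core next to an ETS word, the Mrps17 promoter holds a CCAAT box on each strand and none of the other words, and in the Mrpl17 promoter the run CGCATGCG holds the NRF1 core on both strands.
Mrpl33, chr5:31613701-31614000, plus strand: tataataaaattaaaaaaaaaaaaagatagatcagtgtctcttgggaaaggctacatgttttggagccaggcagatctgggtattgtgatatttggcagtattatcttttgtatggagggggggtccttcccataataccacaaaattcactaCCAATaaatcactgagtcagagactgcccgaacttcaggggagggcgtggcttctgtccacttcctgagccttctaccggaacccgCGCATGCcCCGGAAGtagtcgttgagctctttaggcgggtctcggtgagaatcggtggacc
Mrps17, chr5:129715247-129715546, plus strand: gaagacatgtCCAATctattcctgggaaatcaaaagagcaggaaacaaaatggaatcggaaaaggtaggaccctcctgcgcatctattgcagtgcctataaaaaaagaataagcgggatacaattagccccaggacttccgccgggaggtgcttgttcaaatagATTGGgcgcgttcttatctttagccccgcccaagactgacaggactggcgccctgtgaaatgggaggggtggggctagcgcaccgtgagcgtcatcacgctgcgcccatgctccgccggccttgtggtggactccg
Mrps21, chr3:95871465-95871764, minus strand: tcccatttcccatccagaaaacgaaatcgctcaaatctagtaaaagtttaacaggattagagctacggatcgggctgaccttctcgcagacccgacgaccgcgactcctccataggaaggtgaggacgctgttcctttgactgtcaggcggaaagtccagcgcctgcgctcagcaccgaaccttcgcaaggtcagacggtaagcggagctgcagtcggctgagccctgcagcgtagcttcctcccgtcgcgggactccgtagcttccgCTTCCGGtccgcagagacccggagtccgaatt
Mrps7, chr11:115603890-115604189, plus strand: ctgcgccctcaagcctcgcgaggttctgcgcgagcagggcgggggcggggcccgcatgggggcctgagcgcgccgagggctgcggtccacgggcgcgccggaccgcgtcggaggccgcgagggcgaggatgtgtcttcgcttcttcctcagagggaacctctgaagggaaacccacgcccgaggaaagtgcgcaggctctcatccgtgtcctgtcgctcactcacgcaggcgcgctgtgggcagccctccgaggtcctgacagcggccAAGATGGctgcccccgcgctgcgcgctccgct
Mrps24, chr11:5707652-5707951, minus strand: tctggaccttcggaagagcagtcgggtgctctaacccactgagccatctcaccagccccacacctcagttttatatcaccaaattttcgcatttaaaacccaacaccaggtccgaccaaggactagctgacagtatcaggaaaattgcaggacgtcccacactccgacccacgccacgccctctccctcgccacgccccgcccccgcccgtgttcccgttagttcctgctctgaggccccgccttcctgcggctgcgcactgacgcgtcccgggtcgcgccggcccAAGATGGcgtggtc
Mrpl17, chr7:105811038-105811337, minus strand: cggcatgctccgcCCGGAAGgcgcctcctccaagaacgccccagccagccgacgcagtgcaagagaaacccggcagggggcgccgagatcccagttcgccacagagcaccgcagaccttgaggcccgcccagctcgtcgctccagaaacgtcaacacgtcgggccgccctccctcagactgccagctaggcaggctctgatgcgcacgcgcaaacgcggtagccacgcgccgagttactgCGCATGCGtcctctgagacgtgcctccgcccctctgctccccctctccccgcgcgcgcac

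The first comparison asks whether these genes differ with shRNA RUS on the day on which the cells leave FGF2. On day 5, 27 of the 78 genes were higher with shRNA RUS and 3 were lower (limma, adjusted p under 0.05 over 22581 genes tested). The median log2 change was 0.18, against -0.06 over all genes and 0.05 over genes at least as abundant as the lowest of the 78. Over all genes 14.8% were called higher and 17.9% lower. Abundant genes are called more often: among the 9562 genes at least as abundant as the lowest of the 78, 28.2% were called higher and 20.3% lower. The 34.6% of the 78 called higher lies near the first of these shares and is no result about these genes by itself, while the 3.85% called lower lies below both backgrounds. On the TPM as deposited the split was 14 higher and 12 lower, with a median of 0.02 for the 78 genes and of -0.21 for all genes, of which 7.83% were called higher and 26.7% lower. After quantile normalization it was 16 higher and 4 lower, beside 3342 and 3327 of all 22581 genes, with medians of 0.09 and 0.01. The distance of the 78 genes from all genes thus fell from 0.24 to 0.08, and the size of the day 5 increase depends on the scale and on the genes it is set against. In bulk RNA, fewer cells of a type and less RNA per cell cannot be told apart.

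Libraries decided much of this count. Leaving out the library labelled shRNA RUS replicate 4 gave 47 higher and 3 lower, beside 17.4% of all genes called higher and 20.3% called lower. Leaving out shRNA CON replicate 1, shRNA RUS replicate 1 or shRNA RUS replicate 3 gave 17, 17 and 16 higher, beside 2756 of 22414, 2993 of 22644 and 2695 of 22646 genes in all. In replicate 4, 69 of the 78 genes had the lowest of the 4 shRNA RUS values of day 5, against 35.4% of the genes with a mean at or above that of Mrpl1. Replicate 4 lay inside the range of the controls for 36 genes, above it for 19 and below it for 23, whereas the other 3 shRNA RUS libraries were all above the controls for 53. Its summed proliferation markers (Mki67, Pcna, Top2a, Ccnb1 and Mcm2) were inside the range of its own group, 304 to 343 scaled TPM, and below the 524 to 544 of the controls, and all 5 were called lower. Radial glia markers summed to 12452 to 14594 scaled TPM with shRNA CON and 17727 to 21220 with shRNA RUS on day 5 (3 of 6 higher, 1 lower), astrocyte markers to 2457 to 2591 and 3308 to 3560 (1 of 4 higher), oligodendrocyte lineage markers to 92.6 to 116 and 57.7 to 72.4 (3 of 5 lower), and microglia markers to 22.6 to 26.6 and 18.4 to 25.9 (1 of 4 lower). Fibroblast and vascular markers summed to 18.3 to 21.2 and 20.1 to 27.7 (1 of 4 higher), and neuron markers to 472 to 540 and 485 to 545 (1 of 5 higher, 2 lower). Nes had the largest change among the radial glia markers and was lower (-0.87, limma adjusted p = 3.46e-05), against the direction of their sum. The part of these markers in the result was not tested. Transcript length moved with the change as well: among abundant genes the median log2 change on day 5 was 0.15 for spliced lengths under 1 kb and -0.08 for lengths over 4 kb, and the median length of the 78 was 1052 bases. The 36 of the 78 genes under 1 kb had 0.25, and the 24 of 1 to 2 kb had 0.18, where abundant genes had 0.09. The 15 of 2 to 4 kb had 0.01, against 0.02 of abundant genes of that length, and the 3 over 4 kb had 0.24. When each library was centred within bins of length, a step chosen after seeing the data, 30 were higher and 3 lower, beside 4128 and 3585 of all 22581 genes.

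Mrpl48, a protein of the central protuberance of the large subunit, showed the largest of the increases in which the groups did not overlap. It was at 62.4, 72.7, 72.6 and 75.2 scaled TPM with shRNA CON and at 106, 110, 116 and 99.6 with shRNA RUS. Every shRNA RUS library, replicate 4 included, was above every control, with a log2 change of 0.61 ± 0.07 (SE, limma adjusted p = 0.000323). Mrps7, of the head of the small subunit, went from 69.3, 78.3, 82.6 and 82.5 to 116, 111, 115 and 97.5 scaled TPM (log2 change 0.49 ± 0.08, limma adjusted p = 0.00143). Mrpl41, a protein found only in mitochondrial large subunits, went from 59.4, 69.8, 66.9 and 72.8 to 94.5, 99.2, 106 and 80.3 scaled TPM (0.50 ± 0.10, limma adjusted p = 0.00379). Both had no overlap, with replicate 4 the lowest of its group.

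Mrps11, of the small subunit platform, and Mrps21 completed the 5 largest increases of that kind, at 0.45 each. Mrps21 was at 231, 281, 267 and 275 scaled TPM with shRNA CON and at 374, 367, 389 and 305 with shRNA RUS (SE 0.09, limma adjusted p = 0.00527). Exons of Mrps11 overlap those of Mrpl46 on the opposite strand and exons of Mrps7 overlap those of Gga3 and Mif4gd. The same holds for Mrpl48 (Rab6a), Mrpl47 (Actl6a and Ndufb5), Mrpl24 (Rrnad1), Mrpl49 (Syvn1), Mrps18b (Gm16279), Mrps30 (B430218F22Rik), Mrps34 (Mapk8ip3, and Nme3 on the same strand) and Mrpl9 (Oaz3), and for 28 of the 78 genes in all. Since the counting is not stated to use strand, the values of such genes are uncertain. In all, 19 of the 78 genes had every shRNA RUS library above every control, against 14.1% of all genes. Larger fitted changes were seen for Mrpl54 (0.65, limma adjusted p = 0.0246) and Mrps34 (0.63, limma adjusted p = 0.0381), but in both replicate 4 fell among the controls, at 59.0 scaled TPM for Mrpl54 beside 95.4, 95.9 and 96.2 in the other 3.

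Only Mrpl33, Mrps17 and Mrpl47 were lower on day 5, all 3 with no overlap between the groups. Mrpl33, a small protein of the large subunit with a bacterial counterpart, was at 136, 168, 165 and 161 scaled TPM with shRNA CON and at 108, 101, 96.2 and 88.9 with shRNA RUS. Its log2 change was -0.67 ± 0.08 (limma adjusted p = 0.000384), a fold of 0.627. Mrps17, a conserved protein of the small subunit, was at 87.1, 87.0, 93.6 and 90.1 against 66.6, 64.7, 67.5 and 53.7 scaled TPM (-0.50 ± 0.08, limma adjusted p = 0.00108).

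Mrpl47, at the exit tunnel of the large subunit, was at 20.9, 25.9, 21.4 and 24.1 against 19.9, 18.6, 17.1 and 17.0 scaled TPM (-0.34 ± 0.09, limma adjusted p = 0.0148). In replicates 1 to 3 of shRNA RUS, where 53 of the 78 genes were above every control, these 3 genes were below every control. Mrpl47 was no longer called after centring by length (log2 change -0.22, limma adjusted p = 0.114).

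**Figure D2:**
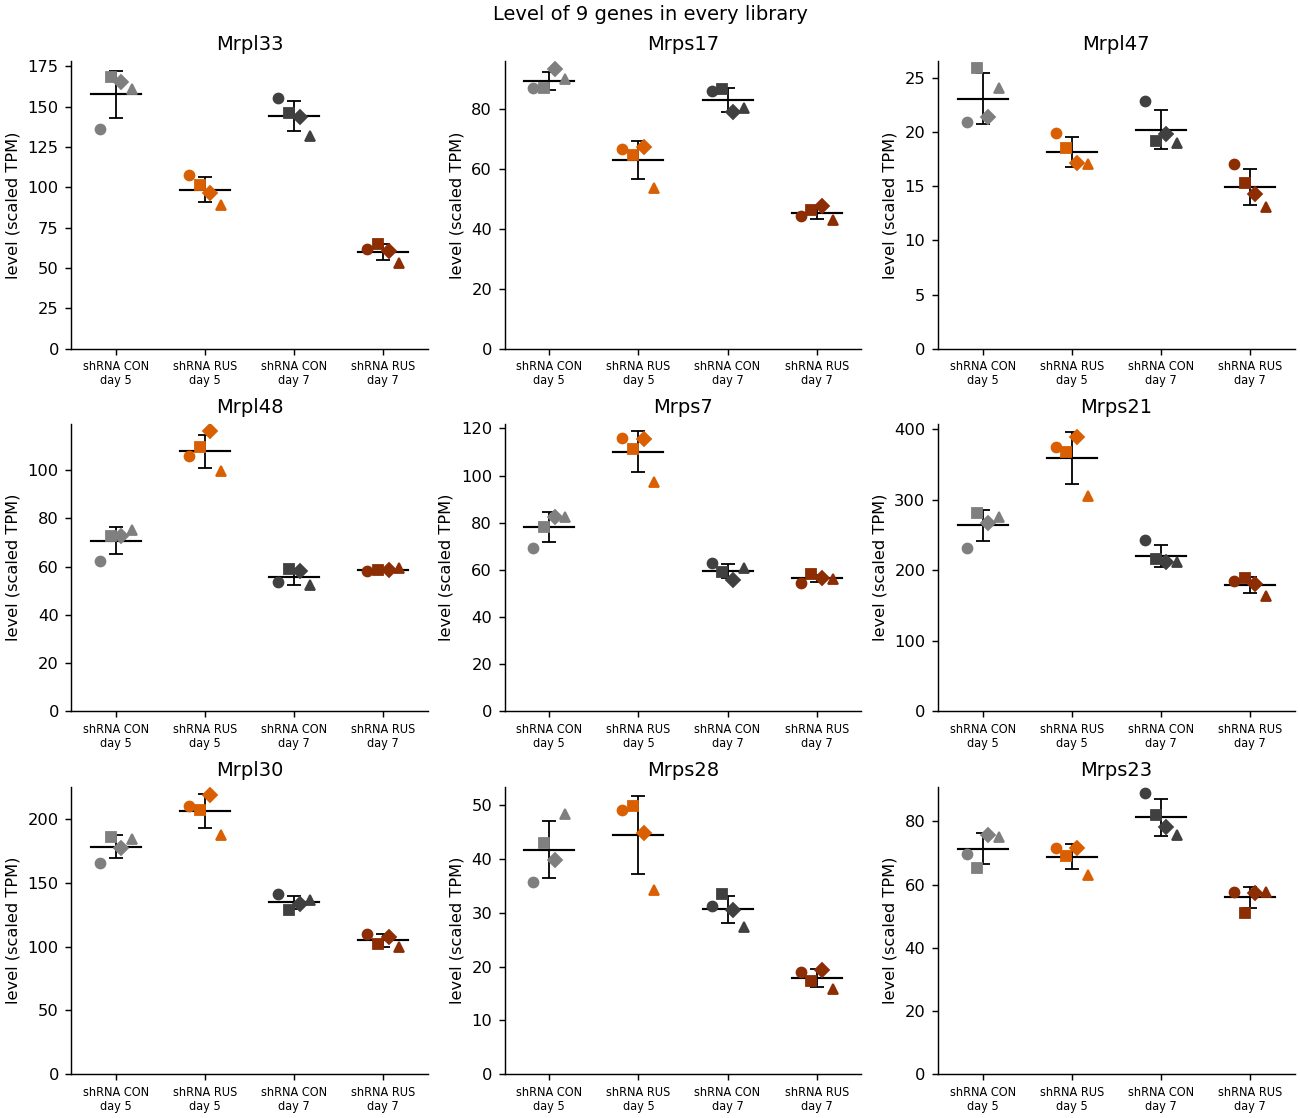
Level (scaled TPM, axis from 0) of 9 genes in every library of the 4 groups; points are libraries (circle, square, diamond and triangle for replicates 1 to 4), lines are means and bars are SD over 4 libraries. Mrpl33, Mrps17 and Mrpl47 are lower with shRNA RUS on both days, Mrpl48, Mrps7 and Mrps21 are higher on day 5, and Mrps28 and Mrps23 were called on day 7 and not on day 5.

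Day 7 was the day on which the set differed most clearly between the shRNAs. Of the 78 genes, 56 were lower with shRNA RUS and 0 were higher, also at an unadjusted p under 0.05 (limma, 24606 genes tested; in the same fit 23.4% of all genes were called higher and 25.8% lower). The genes lower were 71.8% of the set, against 34.7% called lower among genes at least as abundant. Their median log2 change was -0.26, against -0.03 over all genes, and 73 of the 78 values were negative. With factors set within the day, as in the test, in 51 genes every shRNA RUS library was below every control, against 24.7% of all genes, and in 1, Mrpl9, every shRNA RUS library was above every control, although its change was not called (0.06 ± 0.03, limma adjusted p = 0.169) and its groups overlapped on the scale of all 16 libraries. TPM as deposited gave the same 56 lower and 0 higher, quantile normalization gave 58 and 0, and leaving out 1 library at a time gave 49 to 57 lower. Of all 24606 genes, 6324 were called lower on TPM as deposited and 6019 after quantile normalization. With 1 library left out, 5810 to 6098 of all genes were called lower. DESeq2 and edgeR were not run, since the values are TPM.

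Mrpl33 again showed the largest decrease. It was at 155, 146, 144 and 132 scaled TPM with shRNA CON and at 61.5, 64.9, 60.6 and 53.2 with shRNA RUS, so that every shRNA RUS library was below every control. Its log2 change was -1.25 ± 0.07 (limma adjusted p = 8.57e-07), a fold of 0.421. Mrps17 was at 86.0, 86.9, 79.0 and 80.4 against 44.2, 46.2, 47.5 and 43.0 scaled TPM (-0.86 ± 0.05, limma adjusted p = 9.42e-07), again without overlap.

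Mrps28, a small subunit protein related to the bacterial protein S1, was at 31.3, 33.5, 30.4 and 27.4 against 19.0, 17.3, 19.3 and 15.8 scaled TPM (-0.76 ± 0.08, limma adjusted p = 4.64e-05). Mrps24, of the small subunit head, was at 61.9, 57.2, 56.2 and 51.4 against 35.7, 38.6, 37.7 and 35.9 scaled TPM (-0.60 ± 0.06, limma adjusted p = 2.86e-05). Exons of Mrps24 overlap those of Urgcp on the same strand, and reads may be split between them. The groups did not overlap for either gene, whereas on day 5 their changes were 0.09 and 0.03 and not called. Mrpl57, found only in mitochondria, had a log2 change of -0.65 ± 0.08 (limma adjusted p = 0.000151). On day 5 its change was -0.02 ± 0.27 (limma adjusted p = 0.972), with controls from 46.3 to 89.9 scaled TPM.

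The changes of most members were small. On day 7, 69 of the 78 log2 changes lay between -0.5 and 0.5, and 9 lay below. The 22 genes not called on day 7 include 15 that had been called higher on day 5, such as Mrpl48 (0.09 ± 0.05 on day 7, limma adjusted p = 0.157), Mrps7 (-0.07 ± 0.04, limma adjusted p = 0.253) and Mrpl45 (0.00 ± 0.07, limma adjusted p = 0.980). The other 7, namely Mrpl18, Mrpl19, Mrpl23, Mrpl50, Mrpl52, Mrps15 and Mrps9, were called on neither day.

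Other measures differed between the same day 7 libraries, and their part in the result was not tested. Of 5 proliferation markers, 5 were lower, and their summed level was 532 to 547 scaled TPM with shRNA CON and 232 to 257 with shRNA RUS. Of 4 microglia markers, 4 were lower (56.0 to 59.5 against 24.5 to 32.1 scaled TPM in sum), and of 5 oligodendrocyte lineage markers, 4 were lower (172 to 204 against 90.6 to 139). Fibroblast and vascular markers were higher for 3 of the 4 tested, with Cldn5 at or near 0 and left out by the filter (11.8 to 13.2 against 28.5 to 31.6 scaled TPM). Neuron markers overlapped in sum (685 to 762 against 627 to 744), with 1 of 5 higher and 2 lower. Astrocyte markers were higher for 2 of 4 and lower for 1 (995 to 1017 against 1128 to 1290), and radial glia markers were higher for 2 of 6 and lower for 2 (6790 to 7043 against 7016 to 7676). Nes again changed most among the radial glia markers and was lower (-1.19, limma adjusted p = 1.71e-06). Among abundant genes, the median change on day 7 was -0.14 for lengths under 1 kb and 0.16 for lengths over 4 kb. Centring within bins of length gave 45 of the 78 genes lower and 3 higher, with 43 of the 56 calls kept. In that setting 5924 of all 24606 genes were called lower and 5960 higher.

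**Figure D3:**
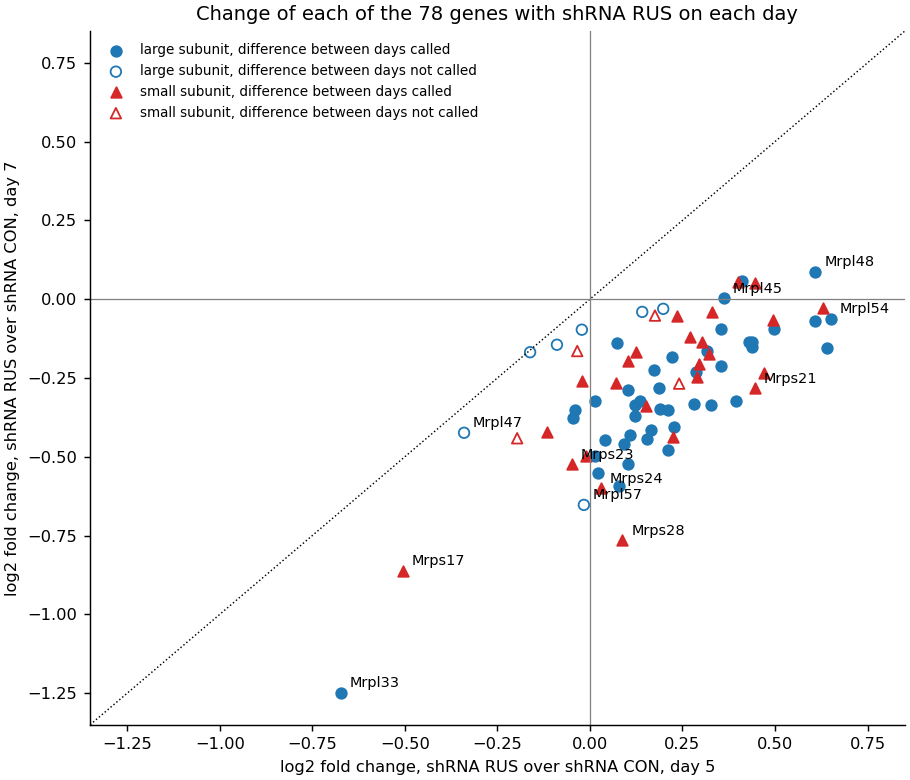
Log2 fold change of each of the 78 genes with shRNA RUS on day 5 (horizontal axis) and on day 7 (vertical axis), with circles for the large and triangles for the small subunit, filled where the difference between the days was called (67 genes). The dotted line marks equal change on both days; every gene lies on or below it, and Mrpl33 and Mrps17 lie apart at the lower left.

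Whether the effect of the shRNA was the same on both days was tested as an interaction. The difference between the effects, day 7 minus day 5, was negative for all 78 genes and was called for 67 (limma interaction over the 16 libraries, 23789 genes tested). In the positive direction 0 were called, also at an unadjusted p under 0.05. Of all genes, 14.6% were called with a negative and 15.2% with a positive difference, and among genes at least as abundant 25.2% were called negative. The median difference was -0.50, against 0.04 over all genes. The count was 48 on TPM as deposited, where 8.63% of all genes were called negative and 24.0% positive. It was 63 after quantile normalization and 61 after centring by length, beside 3412 and 3564 of all 23789 genes called negative. When 1 library was left out it lay between 58 and 72, beside 3063 to 3900 of all genes called negative. In the same fit the difference was called negative for 3 of 4 microglia markers (median -0.73), 3 of 5 proliferation markers (-0.40), 3 of 6 radial glia markers (-0.20) and 2 of 4 astrocyte markers (-0.12, with 1 positive), and positive for 1 of 4 fibroblast and vascular markers (0.72) and 1 of 5 neuron markers (0.21, with 1 negative); their part in the result was not tested. Called higher on day 5 and lower on day 7 were 12 genes: Mrpl13, Mrpl16, Mrpl24, Mrpl27, Mrpl30, Mrpl49, Mrpl51, Mrps12, Mrps16, Mrps21, Mrps33 and Mrps36. A further 41 were lower on day 7 only by the call, 15 higher on day 5 only, and 3 lower on both days.

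Mrps33 of the small subunit head had the smallest adjusted p of the difference (-0.51 ± 0.05, limma adjusted p = 8.32e-06). It was at 171, 170.1, 161 and 165 scaled TPM with shRNA CON and at 204, 212, 218 and 200 with shRNA RUS on day 5, and at 138, 143, 136 and 138 against 125, 118, 122 and 121 on day 7. The groups were thus apart on both days in opposite directions. Mrpl24, at the exit tunnel, was at 112, 115, 115 and 110.5 against 133, 133, 132 and 117 scaled TPM on day 5 and at 119, 117, 117 and 112 against 90.3, 89.3, 91.2 and 91.0 on day 7 (difference -0.55 ± 0.06, limma adjusted p = 1.17e-05).

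Mrpl30, a conserved protein of the large subunit, differed by -0.57 ± 0.07 (limma adjusted p = 6.41e-05) and Mrpl49, found only in mitochondria, by -0.58 ± 0.08 (limma adjusted p = 8.41e-05). In Mrpl24 and Mrpl30 the increase on day 5 was not called on TPM as deposited (log2 change 0.03 and 0.05), whereas the decrease on day 7 was. Mrps28 had the largest difference of the set, at -0.86 ± 0.17 (limma adjusted p = 0.00122), and Mrpl1 the smallest, at -0.02 ± 0.11 (limma adjusted p = 0.922). Mrpl33, lower on both days, still differed between them (-0.59 ± 0.11, limma adjusted p = 0.00120), while for Mrpl47 the test found no difference (-0.10 ± 0.13, limma adjusted p = 0.622).

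Between day 5 and day 7 the set declined in both arms. With shRNA CON, 54 of the 78 genes were lower on day 7 and 1 was higher (limma, 23789 genes tested; 26.9% of all genes higher and 21.6% lower, and 34.5% lower among genes at least as abundant). Their median log2 change was -0.33, against 0.07 over all genes, and 49 genes had no overlap, against 20.8% of all genes. With shRNA RUS, all 78 genes were lower (35.0% of all genes higher and 25.8% lower, and 41.4% lower among genes at least as abundant), with a median of -0.85 against 0.13 over all genes, and 75 had no overlap, against 22.5% of all genes. On TPM as deposited the counts were 38 lower and 3 higher with shRNA CON, and 68 lower and 1 higher with shRNA RUS. The medians of the 78 genes were then -0.18 and -0.53, those of all genes 0.20 and 0.41, and 14.4% of all genes were called lower and 36.0% higher with shRNA CON, against 14.9% and 49.6% with shRNA RUS. The days were deposited as separate tables, and the factor that sets them on 1 scale assumes that the median gene did not change. Marker levels moved between the days as well, and their part in the result was not tested: the ratio of day 7 to day 5 was 0.402 with shRNA CON and 0.342 with shRNA RUS for the summed astrocyte markers (2 of 4 lower and 1 higher in each arm), 0.495 and 0.371 for radial glia markers (3 and 4 of 6 lower, 1 higher in each), 2.32 and 1.30 for microglia markers (3 and 2 of 4 higher), and 1.85 and 1.68 for oligodendrocyte lineage markers (5 and 4 of 5 higher). It was 1.42 and 1.31 for neuron markers (3 and 4 of 5 higher, 1 lower in each), 1.00 and 0.775 for proliferation markers (0 and 3 of 5 lower), and 0.640 and 1.21 for fibroblast and vascular markers (3 and 2 of 4 lower, 0 and 1 higher). Length moved with the change too, since abundant genes under 1 kb had a median of -0.14 with shRNA CON and -0.41 with shRNA RUS, and those over 4 kb had 0.16 and 0.41; the 36 of the 78 genes under 1 kb had -0.35 and -0.90, and the 15 of 2 to 4 kb had -0.27 and -0.73.

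Mrpl45, which lies at the exit tunnel next to the inner membrane, declined most with shRNA CON, from 44.5, 47.6, 46.8 and 48.5 to 26.09, 28.97, 27.05 and 24.73 scaled TPM (-0.81 ± 0.07, limma adjusted p = 7.95e-08). Mrps31 fell from 27.96, 31.07, 30.52 and 30.48 to 18.4, 19.1, 19.1 and 19.2 scaled TPM (-0.66 ± 0.05, limma adjusted p = 9.93e-09) and Mrps6 from 297, 377, 362 and 383 to 237, 229, 233 and 202 (-0.65 ± 0.09, limma adjusted p = 2.91e-05). No library of day 7 reached the day 5 range in any of the 3.

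Mrps23, a small subunit protein found only in mitochondria, was the single gene called higher, going from 69.8, 65.2, 75.7 and 74.9 to 89.1, 82.1, 78.4 and 75.7 scaled TPM (0.19 ± 0.06, limma adjusted p = 0.0251). With shRNA RUS the same gene fell, from 71.7, 69.0, 71.6 and 63.2 to 57.8, 51.1, 57.3 and 57.7 (-0.30 ± 0.06, limma adjusted p = 0.000821). Its day 7 libraries did not overlap between the shRNAs (log2 change -0.52 ± 0.06, limma adjusted p = 8.11e-05). The call of Mrps23 as higher was not stable: leaving out replicate 1 or replicate 2 of either day with shRNA CON, in turn, gave 0 genes called higher. A call can be lost with fewer libraries at the same change, so this does not show that the rise itself was smaller.

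**Figure D4:**
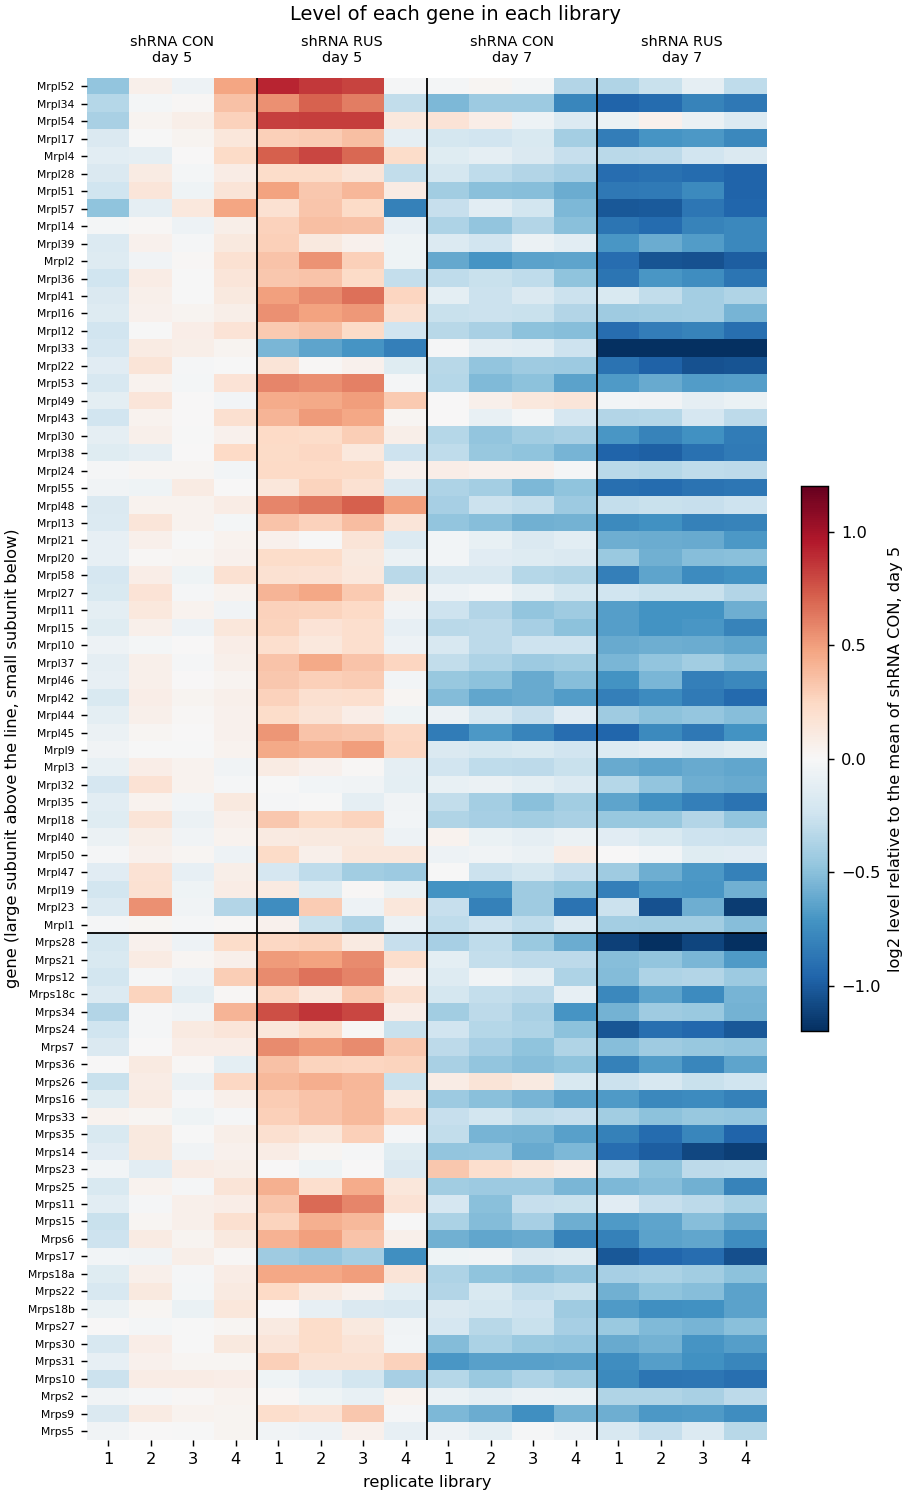
Level of each of the 78 genes (rows) in each of the 16 libraries (columns), as the log2 difference from the mean of the 4 shRNA CON libraries of day 5, with red for higher and blue for lower; rows are ordered within each subunit by the difference between the effects on day 7 and day 5. Replicate 4 of shRNA RUS on day 5 is paler than replicates 1 to 3 in most rows, and the day 7 shRNA RUS columns are the darkest blue.

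The subunits were compared in counts and in their ratio within each library, as a description without a test. On day 5, 15 of the 49 large subunit genes and 12 of the 29 small subunit genes were higher (30.6% and 41.4%, against 14.8% of all genes and 28.2% of equally abundant genes, the share of the large subunit being near the latter), with median log2 changes of 0.17 and 0.22. Without the library labelled shRNA RUS replicate 4, 31 of 49 and 16 of 29 were higher, beside 17.4% of all genes. The large subunit then had the larger share, so that the order of the subunits in these counts rests on that library. On day 7, 36 and 20 were lower (73.5% and 69.0%, against 34.7% of equally abundant genes), with medians of -0.32 and -0.23. The difference between the days was called for 42 of 49 and 25 of 29 (85.7% and 86.2%, against 25.2%). Between the days with shRNA CON, 31 of 49 and 23 of 29 were lower (63.3% and 79.3%, against 34.5%), with medians of -0.29 and -0.39.

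The log2 ratio of the summed large to the summed small subunit level on day 7 was 0.73, 0.74, 0.75 and 0.73 with shRNA CON and 0.67, 0.65, 0.66 and 0.68 with shRNA RUS. The groups did not overlap, and the ratio was lower in every shRNA RUS library. With geometric means, which weigh every gene equally, it was 0.07 to 0.08 with shRNA CON and 0.04 to 0.05 with shRNA RUS on day 7, again with no overlap. On day 5 the groups overlapped, at 0.66 to 0.70 for the summed ratio with shRNA CON and 0.59 to 0.69 with shRNA RUS, where 0.59 was replicate 4. On day 7 the median changes of the subunits differed by -0.09 on the log2 scale, by -0.04 when genes were assigned by structure, and by -0.0023 after centring by length, a step chosen after seeing the data.

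**Figure D5:**
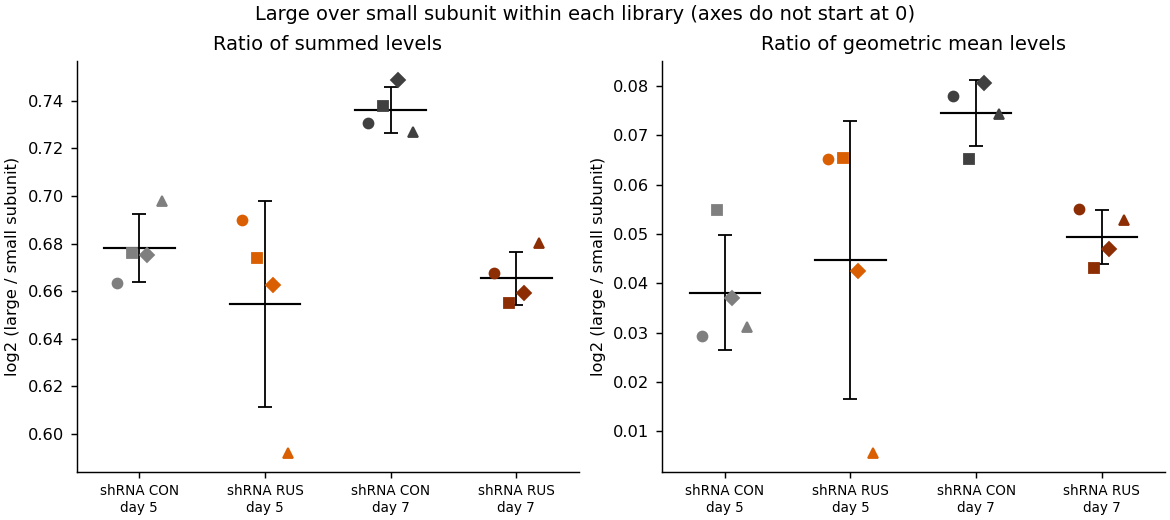
Log2 ratio of the large to the small subunit within each library, from summed levels (left) and from geometric means (right); the axes do not start at 0. Points are libraries (circle, square, diamond and triangle for replicates 1 to 4), lines are means and bars are SD over 4 libraries; on day 7 all shRNA RUS libraries lie below all shRNA CON libraries, and on day 5 the groups overlap.

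Names and structure disagree for a few members. Mrps30 and Mrps18a are named for the small subunit but sit in the large one. Mrps18a was at 80.8, 93.2, 88.4 and 94.8 with shRNA CON and at 123, 123, 126 and 99.3 scaled TPM with shRNA RUS on day 5 (0.40 ± 0.09, limma adjusted p = 0.00742), without overlap, and was not called on day 7 (0.05 ± 0.04, limma adjusted p = 0.335). Its paralogs in the small subunit had other values: Mrps18b changed by -0.42 ± 0.06 (limma adjusted p = 0.000270) and Mrps18c by -0.44 ± 0.06 (limma adjusted p = 0.000287) on day 7, and neither was called on day 5 (-0.12 and 0.22). Mrps30 was not called on day 5 and was lower on day 7 (-0.17 ± 0.06, limma adjusted p = 0.0313). Mrps36, since assigned to the oxoglutarate dehydrogenase complex of the citric acid cycle, was higher on day 5 (0.29 ± 0.06, limma adjusted p = 0.00387) and lower on day 7 (-0.25 ± 0.05, limma adjusted p = 0.00205). Assigned by structure, 16 of 51 large and 10 of 26 small subunit genes were higher on day 5, and 37 and 18 were lower on day 7.

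Proteins with a bacterial counterpart and proteins found only in mitochondria were also set side by side. Of 46 conserved members, 13 were higher and 3 lower on day 5, and 36 were lower on day 7 (median log2 changes 0.16 and -0.33). Of 31 members found only in mitochondria, 13 were higher and 0 lower on day 5, and 19 were lower on day 7 (0.24 and -0.18). The shares higher on day 5 were 28.3% and 41.9%, against 28.2% of equally abundant genes, so that the first is no result about the conserved members, and the shares lower on day 7 were 78.3% and 61.3%, against 34.7%. The genes lower on both days, Mrpl33, Mrps17 and Mrpl47, are all conserved, as are 46 of the 78 genes, and no test was made.

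By place in the ribosome, the 4 proteins of the stalk where translation factors bind (Mrpl10, Mrpl11, Mrpl12 and Mrpl53) had a median of 0.18 on day 5 and -0.31 on day 7, with 3 lower on day 7. The 4 proteins around the peptidyl transferase centre (Mrpl2, Mrpl3, Mrpl4 and Mrpl16) had 0.36 and -0.24, also with 3 lower. The 8 at the exit tunnel had 0.10 and -0.39 with 6 lower, the 8 of the central protuberance had 0.15 and -0.17 with 6 lower, and the 8 of the small subunit head had 0.16 and -0.26 with 5 lower. All of these regions had a negative median difference between the days, from -0.48 at the exit tunnel to -0.61 around the peptidyl transferase centre, beside -0.50 for the 78 genes. On day 7, 71.8% of the 78 genes were called lower, against 34.7% of equally abundant genes and 25.8% of all genes. The counts by region lie near the share of the whole set and are no result about a region by themselves. A difference between regions was not tested.

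The other genes of mitochondrial gene expression were counted from fixed lists. Of 5 mitoribosomal proteins with other names, 2 were higher and 1 lower on day 5, and 3 were lower on day 7. Dap3, a GTP-binding protein of the small subunit, followed the main pattern (0.26 on day 5, limma adjusted p = 0.0246, and -0.31 on day 7, limma adjusted p = 0.000537), whereas Ptcd3 was lower on both days (-0.38 on day 5, limma adjusted p = 0.00179, and -0.39 on day 7, limma adjusted p = 3.99e-05). Of 22 assembly factors, 4 were higher and 3 lower on day 5, and 3 were higher and 8 lower on day 7, with medians of 0.11 and -0.06. Mrm1, an rRNA methyltransferase, had the largest change on day 5 (-0.73, limma adjusted p = 0.000285) and Gtpbp6, a recycling GTPase, on day 7 (0.79, limma adjusted p = 0.000416). Shares called lower on day 7 were 71.8% for the 78 genes, 60.0% for the 5 proteins with other names and 36.4% for the assembly factors, the last close to the 34.7% of abundant genes. On day 5, 18.2% of the assembly factors were called higher and 13.6% lower, against 28.2% and 20.3% of abundant genes.

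Of 12 mitochondrial translation factors, 2 were higher and 2 lower on day 5, and 2 were higher and 5 lower on day 7, with medians of 0.02 and -0.01. Tsfm, the exchange factor of the mitochondrial elongation factor Tufm, was the most changed on both days (-0.94 on day 5, limma adjusted p = 0.00131, and -0.89 on day 7, limma adjusted p = 8.57e-05). Of 17 mitochondrial aminoacyl-tRNA synthetases, 4 were higher and 4 lower on day 5, with Vars2 the largest of those called (-0.51), and 2 were higher and 7 lower on day 7, with Aars2 the largest (0.70). Of 18 genes for replication, transcription and RNA handling in mitochondria, 4 were higher and 1 lower on day 5, when Mtpap changed most (-0.59), and 3 were higher and 9 lower on day 7, when Slirp did (-0.54). Shares called lower on day 7 were, in this order of lists, 41.7%, 41.2% and 50.0%, against 34.7% of equally abundant genes. Those of the translation factors and the synthetases lie near that background. On day 5 the shares higher were 16.7%, 23.5% and 22.2%, against 28.2%. The shares lower were 16.7%, 23.5% and 5.56%, against 20.3%.

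The mRNAs that the mitoribosome translates were followed too. Of the 13 mRNAs of the mitochondrial genome, 0 were higher and 2 lower on day 5, with mt-Atp8 the largest (-0.87, limma adjusted p = 0.0112), and 4 were higher and 0 lower on day 7. The 2 lower on day 5 were 15.4%, against 20.3% of genes at least as abundant as the lowest of the 78. The 4 higher on day 7 were 30.8%, against 36.8%, so that neither count is a result about these mRNAs by itself. Their summed level overlapped between the shRNAs on both days: 61685 to 73446 against 54677 to 70958 scaled TPM on day 5, and 64453 to 80797 against 69544 to 81151 on day 7. Of 8 regulators known to act on genes for mitochondrial proteins, 0 were called on day 5 (limma, 1 of the 8 at an unadjusted p under 0.05). On day 7, 4 of the 8 were higher (50.0%, against 36.8% of genes at least as abundant as the lowest of the 78), and 0 were lower, with 1 lower at an unadjusted p under 0.05. Ppargc1a, a coactivator of mitochondrial biogenesis, was the largest of these (0.67, limma adjusted p = 6.27e-06), whereas Nrf1, Gabpa and Myc had log2 changes of -0.11, 0.03 and -0.05 on day 7 that were not called.

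The same counts for related sets are given for scale. Of 76 cytosolic ribosomal protein genes, 44 were higher and 1 lower on day 5 (median 0.31), and 0 were higher and 57 lower on day 7 (median -0.22). Of 83 nuclear genes of oxidative phosphorylation tested, 42 were higher and 7 lower on day 5 (median 0.32), and 3 were higher and 61 lower on day 7 (median -0.31). The difference between the days was called negative for 75 of 76 and 73 of 83. Replicate 4 of shRNA RUS on day 5 stood apart in these sets too: the cytosolic genes summed to 66664 scaled TPM in it, inside the 57610 to 69705 of the controls, against 83390 to 87014 in the other 3, and the oxidative phosphorylation genes to 33848, inside 28754 to 34480, against 42038 to 42397. No test of a difference between the sets was made, and the values give no ground to call the pattern particular to the mitochondrial ribosomal protein genes.

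The 78 genes lie on 17 chromosomes (GRCm38, GENCODE annotation). Exons of 33 overlap those of another gene, 28 of them on the opposite strand and 8 on the same strand, and 18 start within 1000 bp of a protein-coding gene that runs the other way. Mrpl33 spans chr5:31596935-31664384 and Mrps17 spans chr5:129715497-129722556, both on the plus strand, and Mrps21 spans chr3:95862634-95871519 and Mrpl48 spans chr7:100545751-100608301 on the minus strand. The RefSeq starts used for the promoters of Mrpl33, Mrps24 and Mrps7 lie inside the annotated gene spans, which begin upstream of them. Exons of Mrps17 and Mrps21 overlap no other gene, those of Mrpl33 overlap a predicted gene on the same strand, and those of Mrpl48 overlap Rab6a on the opposite strand.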

How the data were processed

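PolyA RNA of 16 NSC libraries, 4 per shRNA and day, was analysed from 1 table per day. The values are TPM as deposited by the authors, who aligned reads with STAR and estimated TPM with RSEM against mm10 (GRCm38); the submitters' processing notes name RSEM, DESeq, mm10 and GRCm38, and the tool versions and the strand setting are not given in the sources used here. TPM keep no read depth, so no count test, interval or floor could be given. The tables also hold the authors' own comparison (mean, fold change, its error and p-values), which was not used. Samples were grouped by their labels. Library factors were medians of the ratios to each gene's geometric mean, taken over genes at 1 TPM or more, within a day for the shRNA comparisons and over 55365 lines for the joint fit (106 lines whose gene symbol was missing or differed between the tables were left out, and 3 lines of the day 5 table without a gene, 0.134% to 0.386% of its TPM). Genes averaging 0.1 TPM or more were tested on log2(TPM + 0.1) with limma 3.58.1 (R 4.3.3, intensity trend) and Benjamini-Hochberg adjustment at 0.05, and fold changes on this scale understate changes of low genes. Summaries and figures were made in Python 3.11.15 (matplotlib 3.10.9, scipy 1.17.1, pandas 2.3.3, numpy 2.4.6). Scripts were tested on simulated data. No 2 libraries held identical values (0 pairs).

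The genes named were the 5 largest changes in each direction among called genes of at least 1 TPM without overlap between the groups on each day (fewer where fewer passed), the 5 smallest adjusted p of the interaction, the largest changes with time with shRNA CON, the most and the least abundant, and the Mrps18 paralogs, Mrps30 and Mrps36; Mrpl9, Mrpl54 and Mrps34 were named after their values were seen. The members and lists were chosen with earlier results of these data known. Alternatives were other pseudocounts, filters, scalings, no trend, a replicate block, subunits by structure, members of other names, and leaving out each library. Centring by transcript length was added after seeing the data.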

Additional observations from a re-analysis of the deposited data

Results flagged for a closer look

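Values of 124 groups of 4 libraries were tested for a library far from the others of its group, by the gap to the nearest library over the range of the group; 10 passed, and chance alone passes about 1 in 20 groups. In the day 5 shRNA RUS group this held for the summed level of the large subunit (0.928 of the range), the small subunit (0.971) and all 78 genes (0.956), and for Mrpl24 (0.942) and Mrps18a (0.898), where replicate 4 was the low library in each. For Mrps36 in the same group (0.880), replicate 1 was the high library. On day 7 it held for Mrpl1 (0.972, replicate 4 low) and Mrps23 (0.920, replicate 2 low) with shRNA RUS, and for Mrps21 (0.857, replicate 1 high) and Mrps31 (0.869, replicate 1 low) with shRNA CON.

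The effect of shRNA RUS differed between the days, by the interaction term, for 67 of the 78 genes. Among the named genes of the large subunit the differences on the log2 scale, day 7 minus day 5, were -0.70 for Mrpl17, -0.60 for Mrpl41, -0.59 for Mrpl33, -0.58 for Mrpl49, -0.57 for Mrpl30, -0.55 for Mrpl24, -0.53 for Mrpl48 and -0.37 for Mrpl45. Among those named Mrps they were -0.86 for Mrps28, -0.74 for Mrps21, -0.67 for Mrps18c, -0.64 for Mrps24, -0.57 for Mrps7, -0.55 for Mrps36, -0.51 for Mrps33 and -0.49 for Mrps23. The smaller ones were -0.41 for Mrps11, -0.38 for Mrps6, -0.37 for Mrps17, -0.36 for Mrps18a, -0.32 for Mrps18b and -0.30 for Mrps30 and Mrps31.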

How the results depend on the processing

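The number of genes higher on day 5 was not stable: 27 became 14 on TPM as deposited, 16 after quantile normalization and 17 without the intensity trend. It ran from 16 to 47 when 1 library was left out. The number lower on day 5 went from 3 to 12 on TPM as deposited. On day 7, 3 genes were called higher after centring by length. With time, 3 genes were higher with shRNA CON on TPM as deposited and after quantile normalization (0 to 1 when 1 library was left out), and 1 was higher with shRNA RUS on TPM as deposited. The median change of the large minus the small subunit on day 7 was -0.0023 after centring by length, and lay between -0.11 and -0.06 when 1 library was left out (-0.05 to 0.02 on day 5). The scalings set a different gene as unchanged by construction; other causes were not tested. Counts lower on day 7, lower with time and of the interaction stayed within 1.5 times under each alternative run, and no named gene turned direction while called. Over the named genes, 2106 alternative values kept their side of the threshold, 134 no longer passed and 28 newly passed.

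Replicate numbers did not pair the libraries: the correlation of same-numbered deviations ran from -0.105 to 0.033, and 2 of 8 libraries correlated best with their own number. With a replicate block, 14 genes were higher and 3 lower on day 5, 54 lower on day 7, 0 higher and 48 lower with time with shRNA CON, 78 lower with shRNA RUS, and 52 differed between the days. Of all 22581 genes, 2231 were then higher and 2735 lower on day 5, and 5895 of 24606 were lower on day 7. With time, 4595 of 23789 were lower with shRNA CON and 5788 with shRNA RUS, and 2647 had a negative difference between the days. Read depth is unknown.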
